A study of Mus musculus with 2207 samples.

Results

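The 8 genes described here encode the pore-forming alpha subunits of voltage-gated calcium channels that are known from neurons: Cacna1a, Cacna1b, Cacna1c, Cacna1d, Cacna1e, Cacna1g, Cacna1h and Cacna1i. They were taken by symbol from the 52636 gene rows that both deposited RPKM tables share, and all 8 had a row. The other alpha subunit genes, Cacna1f and Cacna1s, known from retina and skeletal muscle, are given beside them. So are 16 genes named as auxiliary beta, alpha2delta and gamma subunits.

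Each alpha subunit folds into a channel that opens when the membrane depolarises and lets calcium into the cell. The auxiliary beta and alpha2delta subunits govern its delivery to the membrane and its gating. The gamma genes were included by name, and whether each acts on these channels was not examined. Cacna1a (P/Q-type) and Cacna1b (N-type) are the channels that trigger transmitter release at nerve terminals, and Cacna1e encodes the R-type channel. Cacna1c and Cacna1d are the L-type channels of cell bodies and dendrites, which couple electrical activity to gene transcription, while Cacna1g, Cacna1h and Cacna1i are the T-type channels, which open near the resting potential and support burst firing.

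The nuclei came from the cortex of male C57BL/6 mice (C57BL6/J in the study's methods) at 14 weeks of age, and each was read as its own library by RamDA-seq, which primes total RNA along its whole length. The labels give 6 genotype and plate combinations, each a pool of 3 mice, here called pools: on 96-well plates, WT and Ehmt1delta/+ (1 allele of Ehmt1, the gene of the histone H3 lysine 9 methyltransferase GLP, carries the delta deletion); on 384-well plates, Ehmt1+/+ and Ehmt1delta/+ mice that carry the inducible Ehmt1 transgene (iTg, a FLAG-tagged GLP that Cre switches on) without CamKII-CreER, and iTg mice of both Ehmt1 genotypes with CamKII-CreER, a tamoxifen-dependent Cre of forebrain excitatory neurons. All mice had received tamoxifen (100 mg/kg, given 2 times) when they were 3 weeks old, per the labels. The labels were followed for CreER, which the study's legends give to all groups of the transgene experiment. Values for the 6 pools are given throughout in this order: 96-well WT, 96-well Ehmt1delta/+, 384-well WT, 384-well Ehmt1delta/+, 384-well iTg with CreER, and 384-well Ehmt1delta/+ iTg with CreER. Nuclei cannot be assigned to single mice from the labels, so the pool is the replicate. The p-values measure how much a difference inside a pool, or between 2 paired pools, varies over the pools or pairs.

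Of 2207 nuclei, 1664 carried the label neuron, on average 277.3 in a pool. The other 543 were glia, with 32 to 73 microglia or oligodendrocytes in a 96-well pool and 16 to 71 in a 384-well pool. Read totals were estimated from the RPKM, taking the commonest low value of a nucleus, scaled by exon length, as 1 read. By this estimate the median neuron of a pool held 323273 to 397880 reads. The median for glia was 441701 to 510639 in the 96-well pools and only 39940 to 54877 in the 384-well pools. A low level is therefore seen less often in 384-well glia. The labels were set by the authors from the same expression values. All 4 neuron markers, all 6 microglial and all 6 oligodendrocyte markers were highest under their own label in every pool. Read as a genotype prefix joined to a plate code, the titles place each 384-well pool on 1 plate of its own and each 96-well pool on 4 plates of its own. Plate and genotype therefore cannot be told apart in any comparison of pools.

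On mouse genome mm10 with the GENCODE M21 annotation, the genes lie at chr8:84388440-84640246 on the plus strand (Cacna1a, ENSMUSG00000034656.17), chr2:24603887-24763152 minus (Cacna1b, ENSMUSG00000004113.18), chr6:118587240-119196418 minus (Cacna1c, ENSMUSG00000051331.15), chr14:30039939-30491455 minus (Cacna1d, ENSMUSG00000015968.17), chr1:154390731-154884501 minus (Cacna1e, ENSMUSG00000004110.15), chr11:94408391-94474198 minus (Cacna1g, ENSMUSG00000020866.17), chr17:25374285-25433783 minus (Cacna1h, ENSMUSG00000024112.16) and chr15:80287238-80398279 plus (Cacna1i, ENSMUSG00000022416.15). Cacna1b is the next annotated gene downstream of Ehmt1 (chr2:24789928-24919614, minus strand): both are read in the same direction, and 26775 bases separate the end of Ehmt1 from the start of Cacna1b. Counting was not stated to use strand. Exons of the opposite strand cover 435 exon bases of Cacna1a (3.81% of its exon bases, gene Gm16183), 589 of Cacna1d (4.67%, Chdh) and 1.62% of those of Cacna1h (Tpsg1), so their values may hold reads of those genes, whereas the exons of the other 5 overlap no exon of an opposite gene.

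Promoter windows of 300 bases, from 250 before to 50 after the start of transcription in RefSeq (GRCm38.p6), are shown for 4 genes: Cacna1b and Ehmt1, the neighbours whose RNA is compared with the Ehmt1 genotype below, and Cacna1e and Cacna1i, both higher in excitatory neurons. Capitals mark GC boxes (GGGCGG on either strand, the other strand reading CCGCCC), a motif bound by Sp-family factors.
Cacna1b, chr2:24763103-24763402, minus strand: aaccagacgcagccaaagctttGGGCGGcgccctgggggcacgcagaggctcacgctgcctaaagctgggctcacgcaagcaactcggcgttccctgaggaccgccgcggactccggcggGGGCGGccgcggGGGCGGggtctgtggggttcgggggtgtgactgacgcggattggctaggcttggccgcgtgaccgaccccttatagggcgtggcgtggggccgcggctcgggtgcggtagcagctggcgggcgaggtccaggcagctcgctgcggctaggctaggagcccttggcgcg
Ehmt1, chr2:24919560-24919859, minus strand: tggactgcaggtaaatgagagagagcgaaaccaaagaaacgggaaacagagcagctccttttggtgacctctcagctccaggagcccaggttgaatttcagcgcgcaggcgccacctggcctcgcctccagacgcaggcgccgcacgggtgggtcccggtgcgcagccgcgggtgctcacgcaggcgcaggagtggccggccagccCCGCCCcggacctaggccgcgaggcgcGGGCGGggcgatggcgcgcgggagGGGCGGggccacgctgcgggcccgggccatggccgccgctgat
Cacna1e, chr1:154725871-154726170, minus strand: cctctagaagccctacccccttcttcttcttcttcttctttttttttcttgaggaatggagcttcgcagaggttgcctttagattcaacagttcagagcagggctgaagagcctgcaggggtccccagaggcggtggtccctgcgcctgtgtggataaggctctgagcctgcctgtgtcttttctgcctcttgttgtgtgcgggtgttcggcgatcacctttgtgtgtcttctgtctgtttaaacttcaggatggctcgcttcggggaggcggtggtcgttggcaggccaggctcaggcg
Cacna1i, chr15:80286988-80287287, plus strand: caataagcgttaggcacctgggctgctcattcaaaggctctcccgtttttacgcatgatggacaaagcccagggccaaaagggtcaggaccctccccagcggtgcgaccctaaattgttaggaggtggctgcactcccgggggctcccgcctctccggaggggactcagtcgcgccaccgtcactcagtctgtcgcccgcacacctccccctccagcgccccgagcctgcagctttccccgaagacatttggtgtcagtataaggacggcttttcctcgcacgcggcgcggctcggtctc
The windows of Cacna1b and Ehmt1 each hold 3 GC boxes, with a GC content of 72.3% and 71.7% and 35 and 34 CpG dinucleotides. Those of Cacna1e and Cacna1i hold none, at 55.3% GC with 11 CpG and 62.7% GC with 23 CpG. The Cacna1e window lies inside the gene, whose upstream end in GENCODE M21 is chr1:154884501. No window at that end was examined, so the values hold for the RefSeq start shown. Among 32851 promoter windows of this length in the table, 35.7% hold a GC box and 10.7% at least 3, with a median GC content of 52.7% and a median of 7 CpG. For 5 of the 8 genes the table has 8 windows, and 3 of these hold a GC box. Cacna1c has 3 windows and Cacna1d has 2, and in each gene only 1 of them holds the motif, with 6 copies.

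Neurons expressed all 8 genes, and every gene was higher in neurons than in both glial types. Cacna1a and Cacna1b led, with a mean over pools of 99.2 ± 25.2 and 76.9 ± 6.55 RPKM (SD, n = 6 pools), followed by Cacna1g (58.1 ± 17), Cacna1e (54.9 ± 2.28), Cacna1d (36 ± 3.15), Cacna1i (31.5 ± 7.94), Cacna1h (24.5 ± 10.6) and Cacna1c (18.1 ± 0.454). RPKM are scaled by annotated exon length, in GENCODE M21 25228 bases for Cacna1e, 21191 for Cacna1c and 9763 to 12621 for the rest. Annotated exons that are not used in these nuclei would lower a level, so the order between genes is approximate. Within pools, the order of neighbours held in 6 of 6 pools for Cacna1b over Cacna1g, Cacna1e over Cacna1d, Cacna1d over Cacna1i and Cacna1i over Cacna1h. It held in only 4 of 6 for Cacna1a over Cacna1b, 3 of 6 for Cacna1g over Cacna1e and 4 of 6 for Cacna1h over Cacna1c, so these neighbours do not have a fixed order. Cacna1f averaged 1.01 RPKM (0.84 to 1.33), and Cacna1s reached at most 0.34.

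**Figure D1:**
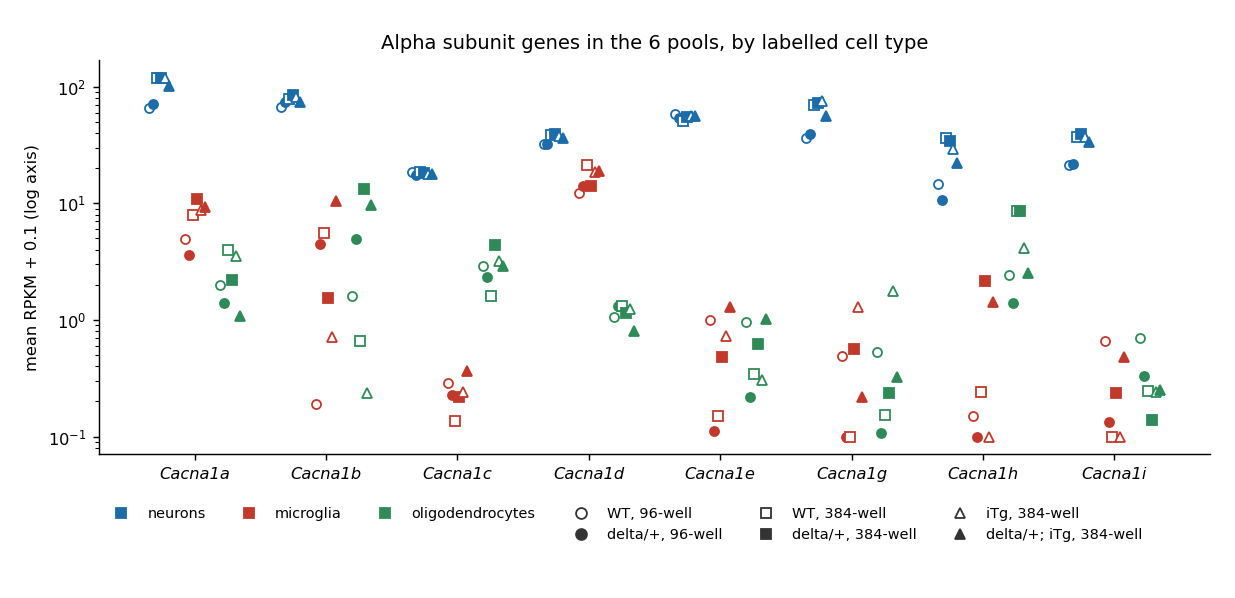
Mean RPKM (plus 0.1, log axis) of each alpha subunit gene in neurons, microglia and oligodendrocytes, 1 point for each of 6 pools. All 8 genes sit highest in neurons, Cacna1d is the highest of the 8 in microglia, and Cacna1b spans the widest range in glia.

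Several of these levels differed between the plate formats. The mice of the 384-well pools also carry iTg per the labels, so plate format and transgene cannot be told apart here. In neurons Cacna1a read 65.1 and 70.6 RPKM in the 96-well pools and 102.2 to 119.5 in the 384-well pools, Cacna1h 14.6, 10.5, 36.3, 34.5, 29 and 22.2, and Cacna1i 21.4, 21.6, 37, 38.9, 36.7 and 33.3. In all 3 genes each 384-well pool lay above both 96-well pools. The ratio of the 384-well to the 96-well mean was 2.43 for Cacna1h, 1.8 for Cacna1g, 1.7 for Cacna1i, 1.69 for Cacna1a, 1.18 for Cacna1d and 1.14 for Cacna1b, all without overlap of the formats, against 1.01 for Cacna1c and 0.975 for Cacna1e, whose ranges overlapped. The channels therefore rank differently on the 2 formats. Each fit below was made within pools or within plate format, unless the block is said to be left out. The correlations, and statements that all pools of a kind lie above or below all others, span both formats. For glia the formats also differ in depth.

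The share of neurons with any read set Cacna1g and Cacna1h apart from the other 6 genes. Cacna1b was above 0 in 100% of neurons in all 6 pools, and Cacna1a (98.2 to 100%), Cacna1c and Cacna1d (each 99.3 to 100%), Cacna1e (97.1 to 98.4%) and Cacna1i (94.7 to 96.8%) were close to it. Cacna1g was above 0 in 79.2 to 85.8% and Cacna1h in 59.6 to 67% of neurons, at the same depth.

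Against oligodendrocytes, limma on log2 of the pool mean plus 0.1 RPKM, with the pool as a block, called all 8 genes higher in neurons (background: 49.1% of 25959 genes called in either direction). The log2 differences ran from 2.60 (SE 0.56, adjusted p = 0.0018) for Cacna1h and 2.72 (SE 0.22, adjusted p = 3.5e-07) for Cacna1c to 7.42 (SE 0.47, adjusted p = 3.6e-08) for Cacna1g. The median of the 8 was 5.27, against 0.56 over all genes tested. Against microglia all 8 were again higher (background 61.8%), with a median of 6.20 against 0.78 over all genes, from 1.15 for Cacna1d to 7.53 for Cacna1g. On this scale most genes were higher in neurons. With each column centred on its median gene, the neuron differences shift by -0.92 against oligodendrocytes and -1.01 against microglia, the share of called genes that are higher in neurons falls from 74.2% to 43.4% and from 69.3% to 45.1%, and Cacna1d against microglia (0.13, adjusted p = 0.67) is no longer called, while the other 7 still are. These are means over nuclei of a pool, in which fewer expressing cells and less RNA per nucleus cannot be told apart.

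Cacna1d was the leading alpha subunit gene of microglia. Its level there was 12.1, 14.1, 21.4, 14, 18.5 and 18.7 RPKM, with 57.9 to 93.8% of microglia above 0, against 0.702 to 1.23 RPKM in oligodendrocytes. No microglial pool came near the oligodendrocyte range, and the difference was 3.85 on the log2 scale (SE 0.18, limma adjusted p = 1.6e-09; background 42.5%). Cacna1a came next in microglia (3.52 to 10.8 RPKM), below Cacna1d in 6 of 6 pools but above Cacna1b in only 4 of 6, and was higher than in oligodendrocytes (0.976 to 3.88 RPKM; log2 1.74, SE 0.26, adjusted p = 0.00013). Cacna1c, Cacna1e, Cacna1g, Cacna1h and Cacna1i each averaged below 1 RPKM over the microglial pools, and Cacna1h and Cacna1i did not pass the filter of 5% of nuclei above 0 in the genotype fit of microglia over all 6 pools.

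Oligodendrocytes differed in the opposite direction for the other L-type gene and a T-type gene. Cacna1c stood at 1.5 to 4.33 RPKM in oligodendrocytes and 0.037 to 0.268 in microglia, a log2 difference of -3.55 for microglia minus oligodendrocytes (SE 0.22, adjusted p = 2.8e-08). Cacna1h stood at 1.3 to 8.5 RPKM, in 7.04 to 21.7% of oligodendrocytes, against 0 to 2.05 in microglia (log2 -3.53, SE 0.56, adjusted p = 0.00021). Cacna1a and Cacna1d, higher in microglia, and Cacna1c and Cacna1h, higher in oligodendrocytes, were the members called, each with 1 direction in 6 of 6 pools. These 4 of 8 genes compare with a background of 42.5% of 25959 genes called, so the count is near that of all genes. The median of the 8 genes was -0.21, against -0.09 over all genes. Neuronal RNA in the glial wells was measured by the 4 neuron markers, whose summed level was 52.9, 12.6, 6.55, 2.55, 2.76 and 7.59 RPKM in oligodendrocytes and 64, 14.6, 6.08, 4.32, 1.63 and 10.3 in microglia, against 152.9 to 257.2 in neurons, with none of the 4 at 0 in every pool. It was highest in the 96-well WT pool in both glial types. The 5 astrocyte markers summed to 9.44 to 41.6 RPKM in microglia and 11.8 to 16.4 in oligodendrocytes. The 3 endothelial markers summed to 0.502 to 10.1 and 0.004 to 0.391. Oligodendrocyte markers summed to 11.6 to 27.1 RPKM in microglia, and microglial markers to 4.03 to 12.2 in oligodendrocytes. The part of RNA from other cell types in the glial values of these genes was not tested.

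Among neurons, 1322 were placed as excitatory and 339 as inhibitory by the larger mean over a list of excitatory markers, which included the glutamate transporter gene Slc17a7, and a list of inhibitory markers, which included the GABA synthesis gene Gad1, and 3 were in neither. Only 1.59% of excitatory and 2.65% of inhibitory neurons lay near the cut. The inhibitory share was 25.7%, 16.6%, 25.6%, 17.3%, 19.6% and 17.9% of the neurons of a pool.

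The R-type and a T-type channel were higher in excitatory neurons, and an L-type channel was higher in inhibitory neurons. Cacna1e read 63.6, 58.9, 58.3, 58.5, 62.1 and 61.7 RPKM in excitatory and 41, 27.8, 30.6, 36, 29.3 and 31.9 in inhibitory neurons. The classes did not overlap, and the log2 difference was 0.89 (SE 0.09, limma adjusted p = 0.00037). Cacna1i read 23.8, 23.1, 43, 43.1, 41.4 and 36.1 in excitatory and 14.4, 13.7, 19.7, 19, 17.7 and 20.5 in inhibitory neurons (log2 0.97, SE 0.10, adjusted p = 0.00042). These classes did not overlap either. Cacna1c read 17.4, 16.7, 17.9, 17.7, 16.7 and 16.7 in excitatory and 22.2, 21.2, 20.6, 21.3, 22.8 and 23.2 in inhibitory neurons, and the inhibitory pools all lay above the excitatory ones by a small step (log2 -0.34, SE 0.07, adjusted p = 0.0078).

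These 3 of 8 genes compare with a background of 37.8% of 27822 genes called, and the median of the 8 was 0.02 against -0.02 over all genes. The other 5 were not called: Cacna1a at 0.23 (adjusted p = 0.055), Cacna1h at -0.47 (adjusted p = 0.16), Cacna1d at 0.09 (0.42), Cacna1b at -0.07 (0.43) and Cacna1g at -0.05 (0.75). Cacna1a was called with a pseudocount of 1 RPKM (0.22, adjusted p = 0.026), with centred columns (0.28, adjusted p = 0.027) and without the iTg pool with CreER. For Cacna1h the spread inside the classes was wide, 10.2 to 32.2 RPKM in excitatory and 10.9 to 56.3 in inhibitory neurons.

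Excitatory neurons were then divided by 4 lists of 4 layer markers, each neuron taking the list with the highest mean of standardised values: 28.7% with upper-layer, 28.2% with layer 4/5a, 21.1% with layer 5 and 21.9% with layer 6 markers. Between 5.9% and 10% of the neurons of a list lay near the cut, so these are ranges of a marker score rather than types. Of the 4 markers, 3 (upper), 4 (layer 4/5a), 2 (layer 5) and 4 (layer 6) were highest in their own list in every pool. All 8 channel genes differed between the lists by the moderated F test of limma (background 39.4% of 27634 genes), and all 8 did so without any 1 pool. Their median largest difference between lists was 0.96, against 0.47 over all genes.

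Cacna1h separated the lists most. It read 22.1, 13.5, 40.5, 41.7, 49.5 and 32 RPKM in upper-layer, 2.31, 1.14, 6.94, 6.71, 7.37 and 2.66 in layer 4/5a, 33.7, 24.5, 77.3, 59.7, 53.9 and 29.4 in layer 5 and 2.74, 3.84, 6.04, 10.1, 9.82 and 7.68 in layer 6 neurons. The upper-layer and layer 5 lists were high and the other lists low in every pool, with no overlap between them. The log2 differences were -3.50 for layer 4/5a minus layer 5 (SE 0.22, adjusted p = 1.9e-08), 3.01 for upper minus layer 4/5a (SE 0.22, adjusted p = 1.1e-07), 2.80 for layer 5 minus layer 6 and 2.31 for upper minus layer 6, while upper minus layer 5 was not called (-0.49, adjusted p = 0.19).

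Cacna1g, of the same T-type family, was low in layer 6 neurons. It read 7.69, 9.39, 12.4, 9.89, 22.4 and 11.7 RPKM there and 42.8, 56.4, 80.7, 97.6, 88 and 62.6 in layer 5 neurons. Every layer 6 value lay below every layer 5 value, and layer 4/5a minus layer 6 was 2.65 on the log2 scale (SE 0.13, adjusted p = 9e-11), layer 5 minus layer 6 was 2.57 and upper minus layer 6 was 2.37. Among upper, layer 4/5a and layer 5 neurons (62.9 ± 22.2, 75.7 ± 21.6 and 71.4 ± 20.8 RPKM, SD, n = 6 pools) no pair was called.

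Cacna1i, the third T-type gene, was highest in layer 4/5a neurons. Its level was 29.3, 35.1, 62, 66.2, 60.3 and 56.3 RPKM there and 18.5, 18.5, 31.6, 33.9, 30.2 and 23.6 in upper-layer neurons. The lists were apart within each plate format, and layer 4/5a exceeded upper layers by 0.96 (upper minus layer 4/5a: -0.96, SE 0.10, adjusted p = 3.1e-06) and layers 5 and 6 by 0.74 each.

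The N-type gene Cacna1b and the L-type gene Cacna1d ran in opposite directions between layer 4/5a and layer 6. Cacna1b read 78.7, 89.7, 92.5, 100.8, 96.7 and 87.3 RPKM in layer 4/5a and 34.1, 46.6, 47, 56.6, 47.4 and 49.2 in layer 6 neurons (log2 0.97, SE 0.06, adjusted p = 3.3e-09). Cacna1d read 22.7, 20.1, 26.5, 28.2, 25 and 22.9 in layer 4/5a and 45, 45.2, 56.9, 61.2, 50.2 and 49.9 in layer 6 neurons (log2 -1.08, SE 0.06, adjusted p = 1.1e-09). Neither gene overlapped between these lists. Upper-layer and layer 5 neurons lay between, at 85.5 ± 5.96 and 73.9 ± 6.08 RPKM for Cacna1b and 35.2 ± 4.65 and 38.6 ± 2.61 for Cacna1d (SD, n = 6 pools).

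The remaining genes moved less. The other L-type gene, Cacna1c, was highest in upper-layer neurons (23 ± 1.36 RPKM) and lowest in layer 6 (12.7 ± 1.43; log2 0.85, SE 0.08, adjusted p = 6.2e-07). Cacna1e was lowest in layer 4/5a (50.9 ± 3.77) and highest in layer 6 (68.5 ± 2.54; layer 4/5a minus layer 6 -0.43, SE 0.07, adjusted p = 0.00011). Cacna1a was lower in upper layers than in layer 4/5a (89.3 ± 25.8 and 117.1 ± 28.3; log2 -0.41, adjusted p = 4.5e-05). Over the 6 pairs of lists, the members called numbered 6 for upper against layer 4/5a (background 17.9%), 2 for upper against layer 5 (10.1%), 6 for upper against layer 6 (26.6%), 6 for layer 4/5a against layer 5 (21.9%), 8 for layer 4/5a against layer 6 (30.3%) and 6 for layer 5 against layer 6 (20.8%). The calls for upper against layer 5 were Cacna1c and Cacna1b, and Cacna1b (0.21, adjusted p = 0.041) was lost when any 1 pool was left out.

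**Figure D2:**
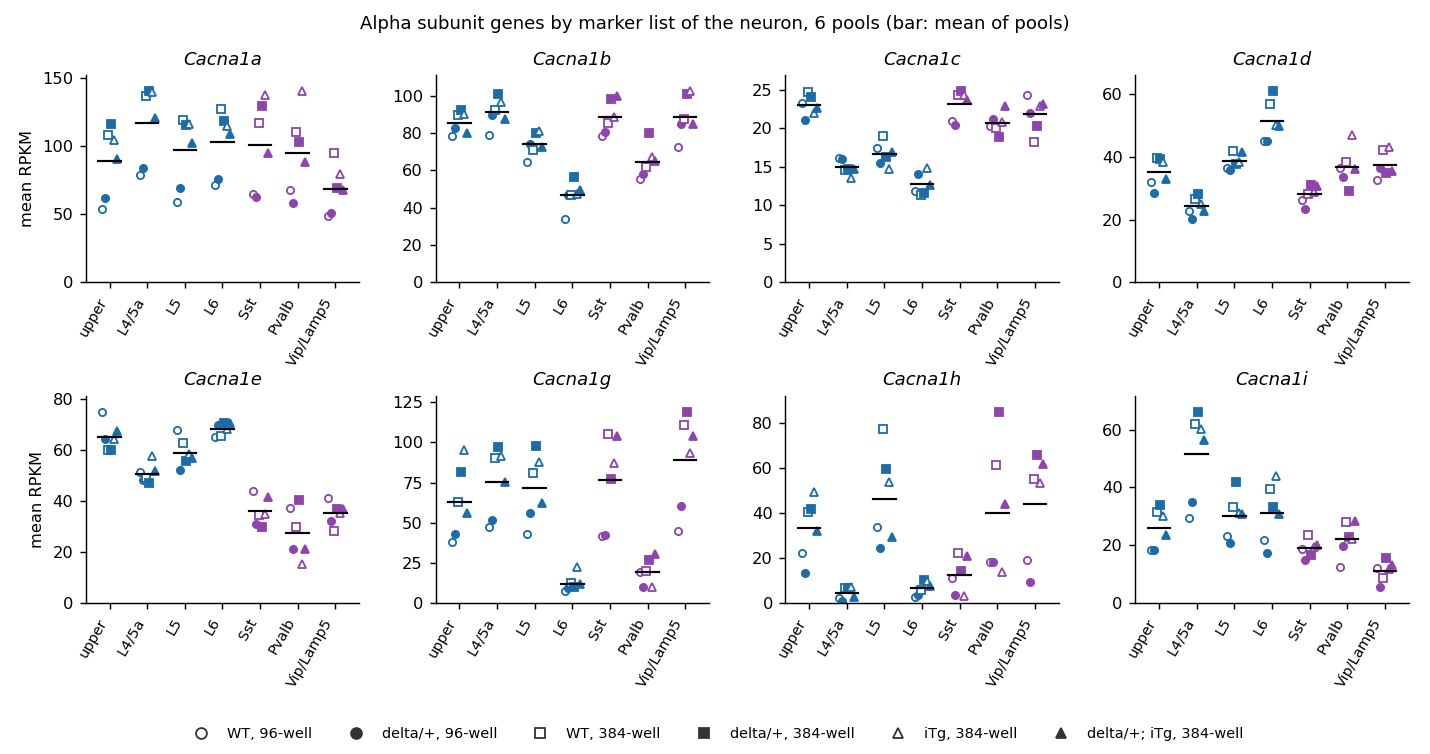
Mean RPKM of each alpha subunit gene by marker list, 4 layer lists of excitatory neurons (blue) and 3 interneuron lists (purple), 1 point for each of 6 pools, with a bar at the mean of pools; axes start at 0. Cacna1h is high with upper-layer and layer 5 markers, Cacna1g is low with layer 6 and Pvalb markers, and Cacna1b and Cacna1d run in opposite directions from layer 4/5a to layer 6.

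Inhibitory neurons were divided in the same way by markers of Sst (30.7%), Pvalb (34.5%) and Vip or Lamp5 interneurons (34.8%), with as few as 11 neurons in a pool and list. Near the cut lay 5.13 to 10.6% of them, and 4 of 4 Sst, 3 of 4 Pvalb and 5 of 6 Vip/Lamp5 markers were highest in their own list in every pool. The 3 markers of oligodendrocyte precursors (Pdgfra, Cspg4, Neu4) summed to 33.8 RPKM in the inhibitory neurons of the 96-well Ehmt1delta/+ pool and to 0.116 to 0.232 in those of the other 5 pools. By list they summed to 0 RPKM in Sst, 39.7 in Pvalb and 60.8 in Vip/Lamp5 neurons of that 96-well pool. That pool is therefore also left out below. Its inhibitory neurons also enter the comparison with excitatory neurons and the fit of the delta allele within inhibitory neurons. Their part in the results was not tested otherwise.

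Of the 8 genes, 5 were called by the F test (background 10.3% of 27483 genes), and Cacna1g was the clearest. It read 19.6, 9.99, 20, 26.8, 9.94 and 30.7 RPKM in Pvalb, 41.8, 42.5, 105.5, 77.4, 87.4 and 104.3 in Sst and 44.9, 60.7, 110.7, 119.2, 93.6 and 104.1 in Vip/Lamp5 neurons. All Pvalb pools lay below all pools of the other lists (Sst minus Pvalb 2.00, SE 0.24, adjusted p = 0.0013; Pvalb minus Vip/Lamp5 -2.23, SE 0.24, adjusted p = 0.00046), and Cacna1g was called by the F test without each pool in turn. Cacna1h read 11.4, 3.73, 22.1, 14.3, 3.23 and 21.1 RPKM in Sst and 19.3, 9.63, 55.2, 65.8, 53.3 and 61.8 in Vip/Lamp5 neurons. Within each pool Vip/Lamp5 was the higher (Sst minus Vip/Lamp5 -1.86, SE 0.38, adjusted p = 0.013), with Pvalb neurons at 40.1 ± 28.7 RPKM (Sst minus Pvalb -1.68, adjusted p = 0.025).

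The other 3 calls were smaller and depended on the pools. Cacna1b stood at 88.4 ± 8.95 RPKM in Sst, 64.6 ± 8.61 in Pvalb and 88.8 ± 11.2 in Vip/Lamp5 neurons (SD, n = 6 pools; Sst minus Pvalb 0.46, SE 0.10, adjusted p = 0.027). Cacna1i was higher in Pvalb than in Vip/Lamp5 neurons (log2 1.0, SE 0.22, adjusted p = 0.021), and Cacna1a was higher in Sst than in Vip/Lamp5 neurons (0.53, SE 0.12, adjusted p = 0.026). Cacna1c, Cacna1d and Cacna1e were not called (adjusted p = 0.64, 0.076 and 0.25). Without the 96-well Ehmt1delta/+ pool the F test called 2 members, Cacna1g and Cacna1h, and without any 1 pool it called 2 or 3. Cacna1h was lost without the 384-well Ehmt1delta/+ pool. By pairs, 3 members were called for Sst against Pvalb (background 5.13%), 2 for Sst against Vip/Lamp5 (6.15%) and 3 for Pvalb against Vip/Lamp5 (6.2%). The median largest difference of the 8 was 0.49, against 0.54 over all genes.

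The Ehmt1 genotype was examined over 3 pairs of pools that differ in the delta allele: 96-well, 384-well without CreER and 384-well with CreER. Fits over so few pairs, here and for CreER below, leave few residual degrees of freedom. A gene that is not called is therefore not shown to be unchanged. Ehmt1 itself is read over the whole gene, so that RPKM cannot single out the deleted stretch and do not check the deletion. Its level in the pools labelled Ehmt1delta/+ lay above that of the partner pool in all 3 pairs, with 18.7 and 31.2, 19.5 and 31.7, and 20.7 and 33.9 RPKM (+ and delta) in neurons, 17.5 and 25.8, 21.8 and 32.6, and 20.9 and 28.3 in oligodendrocytes and 16.8 and 25.1, 15.7 and 20.8, and 23.8 and 26.4 in microglia. The log2 difference in neurons was 0.71 (SE 0.13, unadjusted p = 0.0034, limma adjusted p = 0.80).

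In neurons none of the 8 genes passed the test for the delta allele. With limma and the pair as a block, 0 of 27783 genes were called (background 0.0%), 1516 had an unadjusted p under 0.05, and none of the 8 was among these. The median of the 8 was -0.02, against 0.05 over all genes, and Cacna1b stood at 0.03 (SE 0.14, adjusted p = 0.96): 67.6 and 73.3, 78.5 and 85.6, and 82.2 and 73.9 RPKM in the 3 pairs. Cacna1h was the member farthest from 0 (-0.31, SE 0.15, adjusted p = 0.80), with the delta pool below its partner in 3 of 3 pairs. Outside the 8, Cacna1f stood at 0.41 (SE 0.15, unadjusted p = 0.043, limma adjusted p = 0.80). It read 0.853 and 1.33, 0.84 and 1.15, and 0.858 and 1.01 RPKM. All delta means lay above all others, as for 1.95% of genes tested. Cacna1s stood at 0.30 (SE 0.21, unadjusted p = 0.22, limma adjusted p = 0.80). Within excitatory and within inhibitory neurons no gene was called either (1468 and 1277 had an unadjusted p under 0.05, no member among them). For CamKII-CreER over the pairs of 384-well pools, the members ran from -0.48 (Cacna1h) to 0.08 (Cacna1e), with 0 of 26955 genes called, 534 at an unadjusted p under 0.05 and adjusted p = 1.0 for all 8.

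Cacna1b, the neighbour of Ehmt1, was read in more oligodendrocytes of each Ehmt1delta/+ pool than of any pool without the allele. It was above 0 RPKM in 9 of 73 (12.3%, exact 95% interval 5.8 to 22.1) and 27 of 71 (38%, 26.8 to 50.3) oligodendrocytes of the 96-well pair, in 5 of 69 (7.25%, 2.39 to 16.1) and 25 of 46 (54.3%, 39 to 69.1) of the 384-well pair, and in 4 of 71 (5.63%, 1.56 to 13.8) and 29 of 67 (43.3%, 31.2 to 56) of the pair with CreER. The differences were 25.7, 47 and 37.7 percentage points, and the 3 delta pools lay above the 3 others, as they did for 0.809% of 19167 genes tested. The intervals are Clopper-Pearson intervals and cover counting error only.

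The mean levels had the same order. They were 1.51 and 4.82, 0.564 and 13.1, and 0.136 and 9.65 RPKM (+ and delta), log2 ratios of 1.61, 4.32 and 5.37 with 0.1 RPKM added. All 3 delta means lay above all 3 others (2.57% of genes do), and in the 96-well WT pool 1 nucleus of 86.7 RPKM held 78.7% of the sum. Among nuclei above 0, the median was 1.33 and 12, 2.61 and 22.4, and 2.3 and 19.9 RPKM, so the positive nuclei of delta pools also held more. Over the 3 pairs the log2 difference was 3.77 (SE 0.83, unadjusted p = 0.011), rank 21 from the top of 19167 genes, but the limma adjusted p was 0.90, and no gene was called (background 0.0%, 782 at an unadjusted p under 0.05). With each pair left out in turn the difference was 2.96 to 4.84 and the adjusted p 0.91 to 0.94. The neurons of all 6 pools had Cacna1b in 100% of nuclei at 67.6 to 85.6 RPKM, and no oligodendrocyte pool came near that range.

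**Figure D3:**
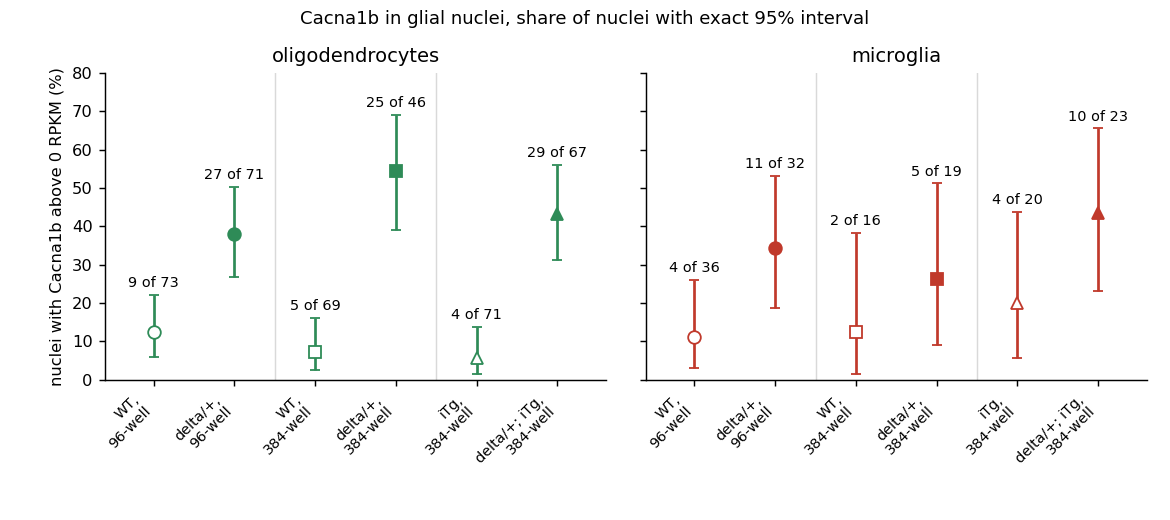
Share of oligodendrocytes (left) and microglia (right) with Cacna1b above 0 RPKM in each of the 6 pools, with exact 95% intervals and the number of nuclei. The 3 Ehmt1delta/+ pools sit at 38 to 54.3% in oligodendrocytes and 26.3 to 43.5% in microglia, against 5.63 to 12.3% and 11.1 to 20% in the other pools.

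Depth and neuronal RNA were measured beside this result. Thinned by calculation to 20000 of the estimated reads per nucleus, the shares of oligodendrocytes with Cacna1b were 4.87% and 29.1%, 4.61% and 48.4%, and 2.86% and 38.3%. Shallower nuclei were left out, 1, 4 and 1 of the 384-well WT, iTg and Ehmt1delta/+ iTg pools. On the 4 plates of the 96-well WT pool the shares were 14.3%, 14.3%, 11.1% and 10%, and on the 4 plates of the 96-well Ehmt1delta/+ pool they were 40%, 23.5%, 42.9% and 45%. The plates of a pool share its mice, and no plate held both genotypes. The summed neuron markers were lower in the delta pool of the 96-well pair (52.9 and 12.6 RPKM) and of the 384-well pair (6.55 and 2.55), and higher in that with CreER (2.76 and 7.59). Snap25, a neuronal synaptic gene, was above 0 in 100%, 70.4%, 26.1%, 19.6%, 15.5% and 40.3% of oligodendrocytes. Among oligodendrocytes with and without Cacna1b, it was found in 100% and 100%, 77.8% and 65.9%, 40% and 25%, 20% and 19%, 25% and 14.9%, and 41.4% and 39.5% in the 6 pools. The 96-well WT pool, with Snap25 in every oligodendrocyte, had Cacna1b in 12.3%. In the other 5 of the 6 pools the share with Snap25 was the larger among nuclei with Cacna1b, from as few as 4 such nuclei. The part of neuronal RNA in the result was not tested.

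The other 7 genes were set beside Cacna1b in oligodendrocytes, where their log2 differences ran from -1.38 (Cacna1g) to 0.35 (Cacna1c), with limma adjusted p from 0.90 to 0.99. Cacna1e was above 0 in 21.9% and 8.45%, 11.6% and 26.1%, and 11.3% and 16.4% of oligodendrocytes, below the partner in the delta pool of 1 pair and above it in the others. Cacna1a had a mean of 1.88 and 1.29, 3.88 and 2.12, and 3.44 and 0.976 RPKM, lower in the delta pool of each pair (log2 -1.02, SE 0.36, unadjusted p = 0.047, limma adjusted p = 0.90), and it was above 0 in 28.8% and 23.9%, 27.5% and 21.7%, and 26.8% and 22.4% of nuclei. Cacna1i was above 0 in 9.59% and 5.63%, 5.8% and 2.17%, and 8.45% and 4.48%. For these shares of Cacna1a and Cacna1i the 3 delta pools lay below the 3 others, as they did for 0.511% of genes. The median of the 8 genes in oligodendrocytes was -0.33, against 0.04 over all genes. Cacna1b and Cacna1a were the only members with an unadjusted p under 0.05.

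Microglia, with fewer nuclei, had the same order of shares for Cacna1b. It was above 0 in 4 of 36 (11.1%, exact interval 3.11 to 26.1) and 11 of 32 (34.4%, 18.6 to 53.2), in 2 of 16 (12.5%, 1.55 to 38.3) and 5 of 19 (26.3%, 9.15 to 51.2), and in 4 of 20 (20%, 5.73 to 43.7) and 10 of 23 (43.5%, 23.2 to 65.5). The delta pools lay above the others, as for 0.75% of 19864 genes tested, but within each pair the intervals overlap. The mean levels did not keep the order, with 0.091 and 4.37, 5.48 and 1.43, and 0.612 and 10.3 RPKM: in the 384-well WT pool 1 nucleus of 85.5 RPKM held 97.5% of the sum. The log2 difference was 2.18 (SE 1.56, limma adjusted p = 0.89) and ran from 1.0 to 4.21 with 1 pair left out. No gene was called in microglia (background 0.0%, 612 at an unadjusted p under 0.05), and the 6 members tested ran from -0.79 (Cacna1g) to 2.18 (Cacna1b), with a median of -0.05 against 0.12 over all genes.

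The difference between cell types was tested on the log2 ratios of the pairs. For Cacna1b the delta ratio in oligodendrocytes exceeded that in neurons by 3.74 (SE 1.73, unadjusted p = 0.075, limma adjusted p = 1.0), so a difference between the cell types was not shown. No gene was called in any of the 3 contrasts (background 0.0% of 25959 genes each), with 535, 1359 and 2304 genes at an unadjusted p under 0.05 for oligodendrocytes against neurons, microglia against neurons and oligodendrocytes against microglia. Of the 8 genes only Cacna1h was among these, in microglia against neurons (2.45, adjusted p = 0.88) and oligodendrocytes against microglia (-2.64, adjusted p = 0.56), and it was read in at most 2 microglia of a pool. In the fit of the WT and Ehmt1delta/+ pools without CreER alone, again no gene was called in neurons, microglia or oligodendrocytes (2579, 385 and 629 at an unadjusted p under 0.05), and Cacna1b in oligodendrocytes stood at 2.96 (unadjusted p = 0.044, adjusted p = 0.91).

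The other genes around Cacna1b were examined in the same way. Within 500 kb of either end of the interval from Cacna1b to Ehmt1 lie 40 other protein-coding genes, of which 24 were tested in neurons, 23 in microglia and 20 in oligodendrocytes. In oligodendrocytes their log2 differences ran from -0.63 to 0.71 with a median of 0.05. Of these genes, 4 had the delta pool above and 2 below its partner in all 3 pairs. None had all delta pools above all others (2.57% of 19167 genes do), and none had an unadjusted p under 0.05. In microglia the neighbours ran from -0.77 to 2.31, and 3 lay above and 1 below in all pairs. Npdc1 (a neural differentiation gene) alone had all delta pools above the others, as did 3.03% of 19864 genes tested. It read 0.514 and 0.577, 0.378 and 1.01, and 0 and 1.34 RPKM (log2 1.74, limma adjusted p = 0.89). In neurons the neighbours ran from -0.40 to 0.08 with a median of -0.11. None lay above in all pairs and 9 lay below, of which Rnf208, a ubiquitin ligase gene, had an unadjusted p of 0.042 (-0.40, limma adjusted p = 0.80). The share of all genes with 1 direction in all 3 pairs is not given here, so these counts have no background.

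**Figure D4:**
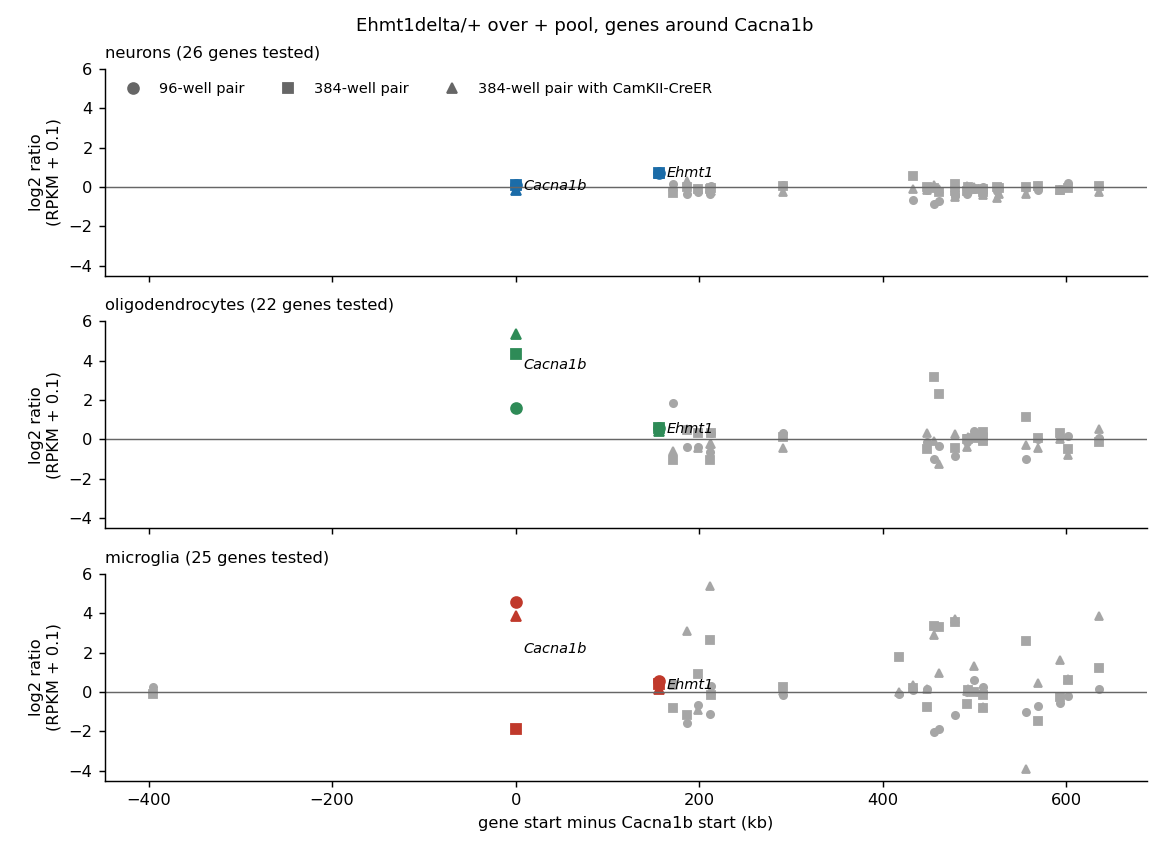
Log2 ratio of the Ehmt1delta/+ to the + pool (mean RPKM + 0.1) in 3 pairs for the genes tested around Cacna1b (Cacna1b and Ehmt1 coloured, the others grey), against the distance of the gene's start from that of Cacna1b, in neurons, oligodendrocytes and microglia. Ehmt1 lies above 0 in each pair and cell type, Cacna1b reaches 1.61, 4.32 and 5.37 in oligodendrocytes, and in neurons Cacna1b lies near 0.

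The auxiliary subunit genes were divided between cell types as well. Against oligodendrocytes 11 of the 14 tested were higher in neurons (background 49.1% called), and 1 was lower, Cacna2d4, an alpha2delta subunit gene (8.34 to 27.3 RPKM in oligodendrocytes and 0.167 to 0.256 in neurons, log2 -5.48). Their median was 4.08, against 0.56 over all genes. Cacnb4, a beta subunit gene (16.9 to 31.2 in oligodendrocytes, 12.3 to 27 in neurons), and the gamma subunit family gene Cacng7 (11.1 to 30.2 and 15.1 to 38.2) were not called. Against microglia all 14 were higher in neurons (background 61.8%), with a median of 5.46 against 0.78. Between the glial types Cacnb2 was higher in microglia (3.48) and 7 were lower (background 42.5%). Between excitatory and inhibitory neurons (background 37.8%) 5 were higher in excitatory (among them Cacna2d1 at 1.26) and 6 in inhibitory neurons, led by Cacna2d2 (-4.66), Cacng4 (-2.78) and Cacng5 (-2.16), with a median of -0.20 over the 16 against -0.02 over all genes. Of those tested, 10 of 15 differed between the layer lists (background 39.4%), with Cacna2d3 higher in layer 4/5a than in layer 6 by 4.22, and 8 of 16 between the interneuron lists (background 10.3%), with Cacna2d1 lower in Sst than in Vip/Lamp5 neurons by 4.83 (log2 -4.83). None was called with the delta allele.

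Across 54 units (6 pools by 7 neuron lists and 2 glial labels), the genes whose log2 level was most like each channel among 22623 genes were Cntnap1 for Cacna1a (Pearson r = 0.98), Igdcc4 for Cacna1b (0.93), Tmem25 for Cacna1c (0.98), Atp6v0a1 for Cacna1d (0.96), Lrrc7 for Cacna1e (0.98), Cyp4x1 for Cacna1g (0.95), Tpsg1 for Cacna1h (0.93) and Kalrn for Cacna1i (0.98). Tpsg1 overlaps Cacna1h on the opposite strand, so their reads may be shared, and the next gene for Cacna1h was Slc25a23 (0.86). The next of each were Unc13a and Mast1, Timp4 and Mir495, Tctn2 and Pcdha7, Cd276 and Adamts10, Unc80 and Tub, Kcnb2 and Pdlim7, Slc25a23 and Adgra2, and Lrrc26 and Cabp1, in the same order of channels. Unc13a encodes a synaptic vesicle priming protein and Unc80 a subunit of the sodium leak channel. The units share pools, plates and depth, so these correlations describe the units and carry no test.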

How the data were processed

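The measurement was full-length total RNA sequencing of single nuclei. Per the labels and the study's methods, the authors trimmed the reads, aligned them to mm10 with HISAT2 2.0.4, counted them per gene with featureCounts (Subread 1.5.0) and named nuclei by clusters and markers. The deposited values are RPKM (reads scaled by exon length and library size) per nucleus, 1 table for each plate format. At the estimated read totals, whole reads came back for 68.6% (96-well) and 74.7% (384-well) of values within 0.005, so no count test was run. Depth and thinning rest on these estimates. Both tables share 52636 gene IDs, 52403 of them named.

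For each pool and cell type or class the mean RPKM was taken, and log2(mean + 0.1) of genes above 0 in at least 5% of nuclei was fitted with limma 3.58.1 (R 4.3.3) across all genes, with the pool, pair or plate format as a block and Benjamini-Hochberg adjustment at 0.05. Pairs shared plate format and CreER status, as the labels give them. Other values came from Python 3.11.15 with pandas 2.3.3, numpy 2.4.6 and scipy 1.17.1. Alternatives were a pseudocount of 1 RPKM, no filter, centring on the median gene, no block, means of log2 values, and leaving out a pool or pair, with classes from Slc17a7 and Gad1 alone and 96-well pools alone where they applied. All 8 members were named in each comparison, auxiliary genes where called or highest, every tested gene within 500 kb by counts, and the 3 most alike genes of each member. The members and lists were chosen with earlier results of these data known. The fits over the 3 pairs and of the neuron classes were also run on simulated data. Errors there were independent, without pool, pair or format effects, so that run does not test such effects. No doublet caller was run.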

Additional observations from a re-analysis of the deposited data

How the results depend on the processing

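Of 1733 values of single members under an alternative, 1651 kept their direction and side of the threshold, 73 lost their call (51 with a pool left out, 17 with no replicate block, 5 otherwise), 9 gained one and none that was called changed direction, while uncalled values changed sign in 71 cases with a pool or pair left out and 30 otherwise. These are values of log2 differences, and the F tests are counted below. All but 1 of the 73 were differences between neuron lists; the exception was Cacna1d in neurons against microglia with centred columns. With no replicate block (the pool left out of the model), the members called fell from 2 to 1 for upper minus L5, from 6 to 2 for L4/5a minus L5, from 8 to 4 for L4/5a minus L6, from 3 to 1 for Sst minus Pvalb, from 2 to 0 for Sst minus Vip/Lamp5 and from 5 to 2 for the F test over interneuron lists, and all genes called from 10521 to 5157 (excitatory against inhibitory), from 10896 to 4931 (layer F test) and from 2821 to 1526 (interneuron F test); the fit without the block gives the format difference to the error. With a pseudocount of 1 RPKM, Sst minus Vip/Lamp5 called 4. Leaving out each pool in turn gave 1 to 1 members for upper minus L5, 5 to 7 for L4/5a minus L6, 1 to 2 for Sst minus Pvalb, 1 to 1 for Sst minus Vip/Lamp5, 1 to 3 for Pvalb minus Vip/Lamp5 and 2 to 3 for the interneuron F test, of fewer pools by construction. Counts over all genes that moved by more than 1.5 times also included neurons against oligodendrocytes with no filter (19479) and with means of log2 values (20827), and CreER in neurons with centred columns (0 to 32). Centring also moved the share of called genes that were higher from 59.7% to 46.1% (upper minus L6) and from 62.1% to 43.6% (L5 minus L6). The comparisons of the delta allele have 3 pairs and called no member under any alternative. Where a call changed and no other fact is given, the cause was not tested. Depth limits the 384-well glia, in which 1 nucleus can carry a pool mean.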
